A study of Mus musculus with 8 samples.

Results

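The 59 genes described here mark cells that replicate DNA or divide: 27 genes of DNA replication (S genes) and 32 genes of mitosis (G2/M genes), out of 28014 genes counted. They were taken by name, by a rule that uses no measured value, although the list was drawn up with earlier results of these data known, and were followed across all 10 annotated cell types and both genotypes. All 59 were present in the deposited table.

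RNA and antibody tags were counted in single CD31+ cells of the aorta-gonad-mesonephros (AGM) region of mouse embryos at E10.5 by CITE-seq. There were 5 WT libraries, of strain C57BL/6 in the labels, and 3 Meis1-knockout libraries, of strain Meis1-flox/VE-Cre, each from a pool of 2 to 5 embryos of the same genotype. In the knockout, loxP sites flank exon 8 of Meis1, a homeobox transcription factor, and the Cdh5 (VE-cadherin) promoter drives Cre in endothelium. Strain as labelled differed between the genotypes too, so its part cannot be told apart from that of the deletion. The cell types, as annotated by the authors, were arterial endothelium (aEC, 1512 cells), pre-hemogenic endothelium (pre-HE, 248), an EHT cluster named for the endothelial-to-hematopoietic transition (488), erythro-myeloid progenitors (EMP, 747), Myeloid cells (2397), Megakaryocytes (359) and venous endothelium in 4 clusters, vEC_1 (2853), vEC_2 (2706), vEC_3 (2486) and vEC_4 (1372). These clusters were drawn on the same RNA counts, so every difference between cell types below describes the clusters. P-values measure the spread between libraries, each a pool of embryos.

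Total UMIs, the counted molecules, ranged from 20484881 to 79429129 per library over 651 to 2598 cells. Median UMIs per cell lay between 26572 and 28553 in WT 1 to 4, at 12721 in WT 5 and between 9612 and 14895 in the 3 Meis1-knockout libraries, so that depth and genotype were largely confounded. Of 15135 distinct cell barcodes, 33 occurred in 2 or more libraries. A doublet caller marked 83 cells (0.547%), among them 50 Myeloid, 15 EHT (3.07% of that cluster), 9 EMP and 0 pre-HE cells. The summed level of 6 endothelial markers was 33.8 ± 1.7 UMIs per 10000 (SD, n = 5 WT libraries) in pre-HE, 19.7 ± 1.5 in aEC, 4.18 ± 1.4 in EHT and 0.822 ± 0.38 in EMP. For 6 arterial markers it was 14.1 ± 2.1 in pre-HE and 2.55 ± 0.35 in aEC, where 4 venous markers summed to 3.48 ± 0.51. The EHT markers (Runx1, Gfi1, Spi1, Myb and Kit) summed to 7.84 ± 0.40 in EHT and 0.226 ± 0.074 in pre-HE, and the pan-leukocyte gene Ptprc was at 0 in pre-HE. The arterial label of aEC thus rested on a level above that of vEC_1 (1.00) and below that of pre-HE.

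Meis1 itself stood between 12.9 and 51.4 CPM (counts per 1000000 UMIs of the cells summed) in pre-HE of the 5 WT libraries and between 9.57 and 53.1 CPM in the 3 knockout libraries. In EMP it stood between 56.7 and 77.0 CPM in WT and between 21.0 and 36.4 CPM in the knockout. Where these 3′ end counts lie relative to the floxed exon 8 was not examined, so they do not measure the deletion itself. The cause of the lower level in EMP was not tested.

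A dividing cell first licenses its replication origins, when CDC6 and geminin (Gmnn) govern the loading of the MCM helicase, and then copies its DNA with the help of the sliding clamp PCNA, primase and the enzymes that supply nucleotides. Genes of these steps are switched on around the G1/S boundary by E2F transcription factors. Genes of mitosis, among them Cdk1 and its cyclins, the spindle motors, the kinetochore proteins and the anaphase-promoting complex, are switched on later, and many carry CHR elements bound by the DREAM and MuvB-MYB complexes. In the embryo, arterial specification of endothelium is known to go with slower cycling, while emerging hematopoietic progenitors divide actively.

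The promoters of the members carried these words to unequal degrees. RefSeq promoters (GRCm38.p6, from 250 bases before to 50 bases after the start) were matched for 51 of the 59 members, as 55 promoters. An E2F word (TTTCCCGC, TTTCGCGC, TTTGCCGC or TTTGGCGC on either strand) was found in 10 of 25 S promoters (40%), in 1 of 30 G2/M promoters (3.33%) and in 2.26% of all 32851 promoters. That total leaves out the promoters of 1 chromosome. A CHR word (TTTGAA or TTCGAA on either strand, the latter being its own reverse complement) was found in 5 of 25 S promoters (20%), in 23 of 30 G2/M promoters (76.7%) and in 19.2% of all. The CCAAT box (CCAAT on either strand) was found in 17 of 25 S promoters (68%), 23 of 30 G2/M promoters (76.7%) and 37.4% of all. A matching word is a description of the letters and not a site in use. In the stretches printed here no E2F word overlapped a CHR word, while in Mcm5 and Mcm6 neighbouring E2F words of both strands overlapped.

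Promoters of 8 genes that hold these words are shown as examples, each as the 160 bases before the start, 5′ to 3′ on the strand of the gene, with E2F and CHR words in capitals. They do not stand for the whole lists, since other S promoters, among them those of Rrm2, Pcna and Mcm2, held no E2F word. Mcm5 and Mcm6, subunits of the replicative helicase, Cdc6, its loading factor, and Hells, a chromatin remodeller of S phase, hold E2F words. Mki67 (a surfactant of mitotic chromosomes), Top2a (the topoisomerase that disentangles them) and Cdc20 (activator of the anaphase-promoting complex) hold CHR words, and Cdk1, the mitotic kinase, holds both kinds.
Mcm5, chr8:75109349-75109508, plus strand: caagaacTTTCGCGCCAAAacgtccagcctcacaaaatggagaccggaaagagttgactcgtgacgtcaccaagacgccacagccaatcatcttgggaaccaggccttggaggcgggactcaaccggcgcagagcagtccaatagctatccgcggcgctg
Mcm6, chr1:128359706-128359865, minus strand: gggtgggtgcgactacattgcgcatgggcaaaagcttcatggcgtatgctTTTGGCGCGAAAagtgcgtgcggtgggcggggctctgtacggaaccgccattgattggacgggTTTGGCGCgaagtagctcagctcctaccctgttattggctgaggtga
Cdc6, chr11:98907991-98908150, plus strand: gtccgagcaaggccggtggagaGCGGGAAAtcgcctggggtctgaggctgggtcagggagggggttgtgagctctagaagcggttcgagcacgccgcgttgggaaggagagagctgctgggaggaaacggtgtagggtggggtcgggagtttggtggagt
Hells, chr19:38930830-38930989, plus strand: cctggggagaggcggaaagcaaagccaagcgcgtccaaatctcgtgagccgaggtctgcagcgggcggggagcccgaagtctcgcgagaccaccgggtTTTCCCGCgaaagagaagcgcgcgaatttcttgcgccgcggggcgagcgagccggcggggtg
Cdk1, chr10:69352913-69353072, minus strand: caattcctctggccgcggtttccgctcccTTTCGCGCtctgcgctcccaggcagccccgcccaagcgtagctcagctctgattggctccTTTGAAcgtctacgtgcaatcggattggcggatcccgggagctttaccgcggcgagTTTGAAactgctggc
Mki67, chr7:135716380-135716539, minus strand: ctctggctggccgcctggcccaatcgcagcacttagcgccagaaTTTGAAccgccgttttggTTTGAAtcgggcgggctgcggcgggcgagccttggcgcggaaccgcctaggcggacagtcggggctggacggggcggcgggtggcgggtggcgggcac
Top2a, chr11:99024190-99024349, minus strand: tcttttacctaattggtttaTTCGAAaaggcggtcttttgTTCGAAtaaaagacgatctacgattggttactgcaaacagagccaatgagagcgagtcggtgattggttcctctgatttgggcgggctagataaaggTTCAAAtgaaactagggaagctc
Cdc20, chr4:118437344-118437503, minus strand: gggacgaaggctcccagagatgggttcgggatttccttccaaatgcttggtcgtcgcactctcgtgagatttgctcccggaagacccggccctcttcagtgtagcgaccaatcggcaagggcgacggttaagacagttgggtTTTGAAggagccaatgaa
In Cdk1 the E2F word began 131 bases before the start and the CHR words 71 and 15 bases before it. In Mki67 the CHR words began 116 and 98 bases before the start and in Cdc20 the CHR word 18 bases before it. Within Top2a, 3 CHR words began 140, 120 and 23 bases before the start.

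The S genes together were lowest in pre-HE and highest in EMP. In UMIs per 10000 UMIs of the cell type, the 27 S genes summed to 21.4, 19.4, 23.5, 14.9 and 17.8 in pre-HE of WT 1 to 5, and to 24.7, 26.8, 19.1, 18.1 and 27.7 in aEC of the same libraries. They summed to 39.5, 37.3, 37.0, 37.3 and 37.1 in EHT, and to 46.8, 46.6, 38.8, 41.0 and 41.8 in EMP. The ranges of pre-HE and aEC overlapped (19.4 ± 3.3 and 23.3 ± 4.4, SD, n = 5), while every EHT and EMP library lay above every aEC and pre-HE library. EHT (37.7 ± 1.1) and EMP (43.0 ± 3.6) overlapped little, with the EMP levels of WT 3 inside the range of EHT. The venous clusters lay between 31.1 ± 3.3 (vEC_4) and 35.5 ± 2.4 (vEC_3), Myeloid cells at 34.5 ± 1.9 and Megakaryocytes at 21.9 ± 3.3, the last with a sum of 5 cells from WT 3.

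The G2/M genes had a different order. The 32 G2/M genes summed to 30.2, 24.7, 24.4, 17.2 and 26.8 UMIs per 10000 in pre-HE of WT 1 to 5, and to 28.6, 25.4, 26.52, 24.7 and 32.3 in aEC. They summed to 39.5, 51.1, 51.6, 43.7 and 43.6 in EHT, and to 57.9, 55.2, 49.4, 55.5 and 47.8 in EMP. In vEC_4 the sums were 21.1, 27.6, 20.7, 31.6 and 28.6. Pre-HE (24.7 ± 4.7), vEC_4 (25.9 ± 4.8) and aEC (27.5 ± 3.1) thus shared 1 low range, and their neighbours in the order did not differ beyond their spread. Above them, with adjoining means often within each other's spread, came Megakaryocytes (41.4 ± 12.5), vEC_1 (44.9 ± 2.4), EHT (45.9 ± 5.3), EMP (53.1 ± 4.3), Myeloid cells (54.2 ± 3.8), vEC_3 (58.97 ± 3.3) and vEC_2 (61.1 ± 2.9). In vEC_4, then, S genes stood near the level of the other venous clusters while G2/M genes stood at the level of aEC.

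**Figure D1:**
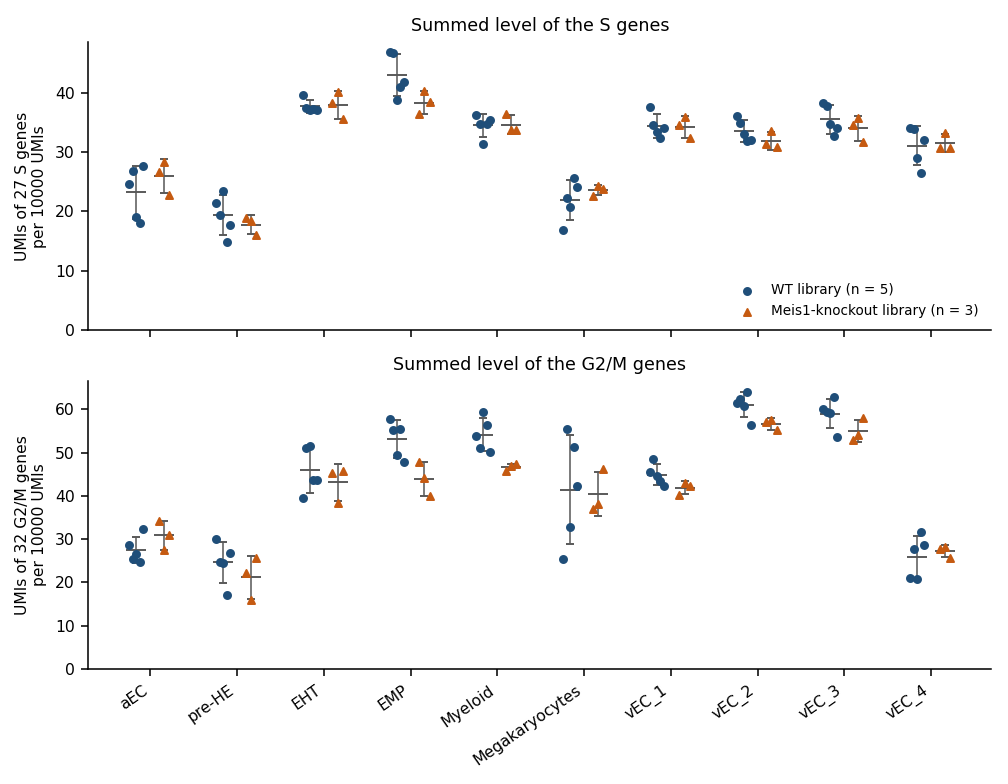
Summed level of the 27 S genes (top) and the 32 G2/M genes (bottom), in UMIs per 10000 UMIs of the cell type, for each of the 10 cell types; each point is 1 library, and horizontal and vertical bars are the mean and 1 SD of a group. In pre-HE the WT libraries lie between 14.9 and 23.5 for S genes, and EMP of WT lies between 38.8 and 46.8; for G2/M genes the WT libraries of vEC_4 (20.7 to 31.6) lie with aEC and pre-HE, apart from the other venous clusters.

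A low sum can come from few cells with these transcripts or from few transcripts in each cell, so single cells were compared at a fixed depth. Random thinning brought every cell to 5000 UMIs, which left out 13 of 77 Meis1-knockout pre-HE cells and 0 of 171 WT pre-HE cells as too shallow. A cell was called low with under 5 UMIs of each list, S-high with at least 5 S UMIs but under 5 G2/M UMIs, and G2/M-high with at least 5 G2/M UMIs. These classes are ranges of counts and not measured cell cycle phases, and the part of free RNA in them was not tested.

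Low cells were found mainly in pre-HE, aEC and Megakaryocytes. In pre-HE of WT 1 to 5 they made up 25.6%, 33.3%, 27.3%, 36.8% and 31.3% of cells, and in the 3 Meis1-knockout libraries 24.0%, 33.3% and 40.0%. In aEC of WT 1 to 5 they made up 6.00%, 9.80%, 12.0%, 20.1% and 7.94%. Every pre-HE library lay above every aEC library. Over all WT cells, 56 of 171 pre-HE cells (32.7%, exact 95% interval 25.8 to 40.3%) and 111 of 886 aEC cells (12.5%, 10.4 to 14.9%) were low. The mean share over WT libraries depended on the limit: in pre-HE it was 12.7% at 3 UMIs, 51.7% at 8 and 8.06% without thinning, against 2.95%, 24.9% and 0.809% in aEC. In EHT the count was 1 of 325 cells (0.308%, 0.00779 to 1.70%) and in EMP 0 of 390 cells, which allows a share of up to 0.769%. The intervals, and the limit for a count of 0, reflect counting error alone. In vEC_4 low cells ranged from 0.709 to 12.5% per WT library, and in vEC_2 and vEC_3 they were at 0 in all 5. In Megakaryocytes low cells ranged from 16.7 to 60.0% per WT library.

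S-high cells were also a large class of pre-HE, with 35.9%, 27.8%, 45.5%, 39.1% and 50.0% of cells in WT 1 to 5, and of vEC_4, with 48.2%, 33.0%, 42.2%, 25.4% and 22.2%. Their share was 29.3%, 31.4%, 28.0%, 30.1% and 16.4% in aEC, and between 6.45 and 18.8% in EHT. The ranges of pre-HE and aEC overlapped for this class. In vEC_2 and vEC_3 it held at most 1.27% of the cells of a WT library. The median cell of WT pre-HE held 2 G2/M UMIs of 5000 and the median cell of vEC_4 held 7.5, against 28 in vEC_2 and 26 in vEC_3.

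In pre-HE, as in aEC, vEC_4 and other clusters, a minority of cells held most of the G2/M UMIs, which a class set by those same UMIs favours. At least 20 G2/M UMIs were found in 25 of 171 WT pre-HE cells (14.6%, exact 95% interval 9.69 to 20.8%), and these held 71.7% of the G2/M UMIs and 17.8% of the S UMIs of the cluster. In WT aEC 23.4% of cells held 64.5% of the G2/M and 24.4% of the S UMIs, and in vEC_4 20.2% of cells held 57.4% and 19.8%. The pre-HE share was 15.4%, 27.8%, 18.2%, 11.5% and 12.5% in WT 1 to 5. In aEC the share was 23.3%, 20.9%, 22.0%, 17.2% and 34.6%, in EHT 40.6%, 51.1%, 58.1%, 49.3% and 44.1%, and in EMP 81.4%, 70.9%, 65.8%, 68.0% and 61.3%. All 5 EMP shares lay above all EHT shares and all EHT shares above all aEC shares, while aEC and pre-HE overlapped. The median pre-HE cell had 3, 2, 3, 2 and 2 G2/M UMIs of 5000 in WT 1 to 5, against 7, 6, 6, 4 and 12.5 in aEC and 26, 23, 22, 25 and 22 in EMP. The median of S UMIs was 8, 6.5, 6, 5 and 5 in pre-HE against 11, 10, 8, 7 and 12 in aEC, with overlapping ranges. Thus the pre-HE sum of G2/M genes near that of aEC went with a lower median cell and a small group of cells with many mitotic transcripts.

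Depth before thinning moved with the class in the blood cells. The median total UMIs of cells with at least 20 G2/M UMIs was 1.08 to 1.44 times that of the other cells of EHT in the 8 libraries, 1.09 to 1.53 times in EMP and 1.19 to 1.43 times in Myeloid cells. In aEC the ratio was 0.878 to 1.14, and in pre-HE 1.28, 0.698 and 0.985 in the 3 libraries with enough cells. The part of total RNA in these shares was not tested. Between 4.17 and 18.2% of pre-HE cells in 7 libraries, and 0% in Meis1-knockout 3, held 4 or 5 G2/M UMIs, next to the limit of 5.

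**Figure D2:**
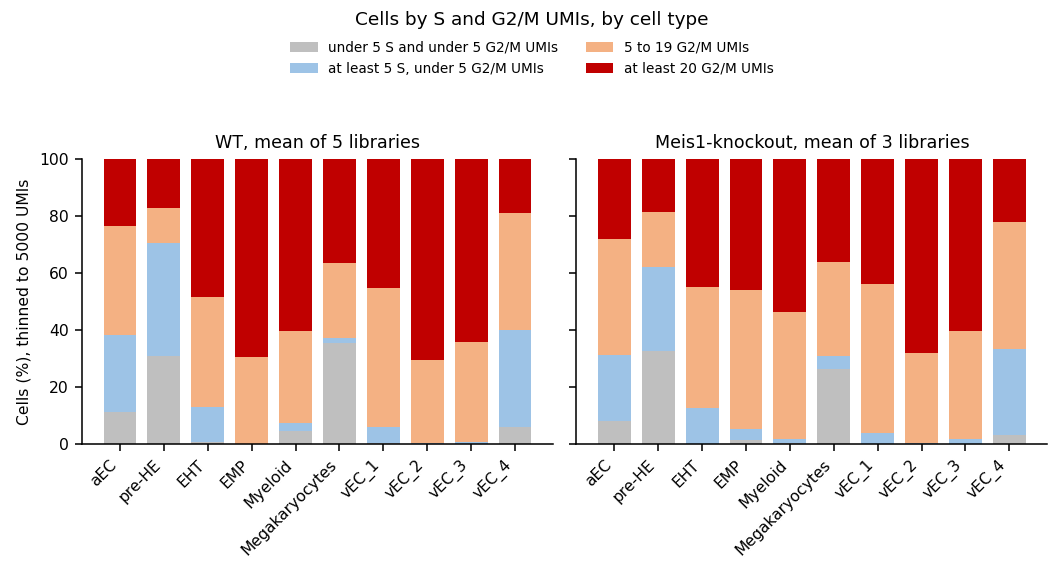
Percent of cells in each class by cell type, after thinning each cell to 5000 UMIs, as the mean of the 5 WT and of the 3 Meis1-knockout libraries in separate panels; stacked bars start at 0 and sum to 100%. Low cells average 30.9% in WT pre-HE and 11.2% in WT aEC, and cells with at least 20 G2/M UMIs average 69.45% of EMP in WT and 45.9% in the knockout.

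The 4 venous clusters differed in which cell cycle genes were high, which describes the clusters. In vEC_4, Mcm6 stood at 186, 178, 154, 125 and 170 CPM in WT 1 to 5, a mean of 163 ± 24 CPM against 129 ± 15 in vEC_1, 126 ± 11 in vEC_2 and 145 ± 16 in vEC_3. Plk1, a kinase of mitotic entry, stood at 19.6, 29.0, 15.2, 39.9 and 30.6 CPM, against 91.8 to 110 CPM in vEC_2. Ube2c, the ubiquitin-conjugating enzyme of the anaphase-promoting complex, stood at 175 ± 71 CPM against 553 ± 47 in vEC_2. So vEC_4 overlapped the other venous clusters in Mcm6 and lay apart from vEC_2 in Plk1 and Ube2c.

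Among the venous clusters with many mitotic transcripts, vEC_2 had higher means than vEC_3 of 2 G2/M genes, Cdc20 at 158 ± 23 CPM (144 ± 17 in vEC_3) and Aurka, a spindle kinase, at 108 ± 11 CPM (89.4 ± 8.4 in vEC_3). These ranges of vEC_2 and vEC_3 overlapped. Among the venous clusters alone, the highest means of Mki67 (241 ± 21 CPM), Top2a (501 ± 39 CPM) and Rrm2, the small subunit of ribonucleotide reductase (213 ± 35 CPM), were those of vEC_3. Cluster vEC_1 had the highest venous mean of Ung, a uracil-DNA glycosylase, at 75.3, 55.8, 47.6, 62.4 and 60.3 CPM, and of Cdc6 at 40.9 ± 3.3 CPM. Its Mki67 stood at 131 ± 15 CPM, between vEC_4 (92.3 ± 11) and vEC_2 (218 ± 19).

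The arterial cluster had less of nearly every member than the pooled venous cells. Of the 59 members, 57 were lower in aEC than in the pooled vEC cells of the same 5 WT libraries (26 S and 31 G2/M genes), 0 were higher, and Mcm6 and Ccnb2 (cyclin B2) did not pass the threshold. Among all 11345 genes tested, 30.6% were lower and 29.2% higher by the same rule, an adjusted p under 0.1 by edgeR's quasi-likelihood test. The median log2 fold change was -0.54 over the S genes and -1.05 over the G2/M genes, against -0.01 over all genes.

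In aEC of WT 1 to 5, Mki67 stood at 60.2, 62.8, 52.1, 51.8 and 82.2 CPM, and in the venous cells at 204, 204, 188, 171 and 169 CPM. The groups did not overlap, and the log2 fold change was -1.57 (SE 0.10, edgeR adjusted p 2.49e-07). Kif11, the motor that pushes the spindle poles apart, stood at 26.1, 24.7, 19.2, 17.9 and 27.4 CPM against 80.5, 80.6, 75.7, 74.3 and 61.0 CPM, a log2 fold change of -1.69 (SE 0.09, edgeR adjusted p 4.34e-15). Top2a stood at 144, 124, 119, 117 and 202 CPM against 420, 364, 429, 430 and 383 CPM, a log2 fold change of -1.504 (SE 0.17, edgeR adjusted p 0.00163). All 3 were lower in aEC in 5 of 5 libraries. Of the S genes, the largest falls were those of Clspn, a checkpoint adaptor at the fork (-1.09, SE 0.10), Rrm2 (-1.03, SE 0.21) and Dtl, an adaptor of a ubiquitin ligase (-0.98, SE 0.09), each lower in 5 of 5 libraries.

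Of 33 G1 regulators and inhibitors listed, 31 were tested, of which 5 were higher and 15 lower in aEC than in venous cells, beside the 29.2% and 30.6% of all genes. Cdkn1a, which encodes the CDK inhibitor p21, stood at 197, 180, 233, 251 and 132 CPM in aEC and at 12.8, 10.5, 10.5, 22.1 and 12.1 CPM in the venous cells. That is a log2 fold change of 3.87 (SE 0.17, edgeR adjusted p 1.3e-05) with no overlap. Rb1, the retinoblastoma gene, rose by 0.80 (SE 0.11) and Cdkn1b, encoding p27, by 0.58 (SE 0.09) on the log2 scale. Ccnd2, a D-type cyclin, fell by 2.09 (SE 0.22), Rbl1 by 1.24 (SE 0.15) and Gas1, which is known for growth arrest, by 1.20 (SE 0.25).

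From aEC to pre-HE more members fell than rose. Of 59 members, 27 were lower in pre-HE than in aEC (15 S and 12 G2/M genes), 3 G2/M genes were higher and 29 did not pass. Over the 8143 genes tested, 21.1% were lower and 21.2% higher. The median log2 fold change was -0.40 over the S genes and -0.25 over the G2/M genes, against 0.01 over all genes. Of the 10 helicase and licensing genes, 7 fell, all but Mcm7, Cdc6 and Cdc45, and of the 7 genes of the mitotic kinase and its partners 5 fell, all but Cdk1 and Ccnb1. After thinning of each cell to 5000 UMIs 45 members passed the filter on low counts, of which 17 fell and 0 rose. Of all 4668 genes tested there, 860 fell and 856 rose.

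In aEC of WT 1 to 5, Mcm5 stood at 80.7, 103, 57.6, 53.7 and 79.5 CPM, and in pre-HE at 58.98, 42.0, 51.9, 43.5 and 64.4 CPM. It was lower in pre-HE in 5 of 5 libraries although the ranges overlapped, with a log2 fold change of -0.55 (SE 0.17, edgeR adjusted p 0.00736). Birc5, encoding survivin of the chromosomal passenger complex, stood at 286, 275, 272, 255 and 379 CPM in aEC and at 182, 154, 201, 120 and 122 CPM in pre-HE. All pre-HE libraries lay below all aEC libraries, a log2 fold change of -0.999 (SE 0.12, edgeR adjusted p 3.96e-11). Cdca8, encoding borealin of the same complex, fell by 0.93 (SE 0.14) on the log2 scale, in 5 of 5 libraries, and Plk1 by 0.80 (SE 0.24), in 4 of 5. In the S list the largest falls were those of Ung (-0.73, SE 0.25) and Rrm2 (-0.69, SE 0.17), each in 4 of 5 libraries, and Mcm3 (-0.64, SE 0.12), in 5 of 5.

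The 3 members that rose in pre-HE act at the spindle, the kinetochore and the cleavage furrow. Nusap1, a spindle protein, stood at 63.0, 39.9, 74.1, 51.2 and 57.0 CPM in aEC and at 99.5, 56.0, 162, 59.3 and 51.5 CPM in pre-HE, a log2 fold change of 0.40 (SE 0.16, edgeR adjusted p 0.0486). Cenpf of the kinetochore had 0.32 (SE 0.14, edgeR adjusted p 0.0746), higher in 3 of 5 libraries, and Ect2, which directs cytokinesis, 0.61 (SE 0.29, edgeR adjusted p 0.0926), higher in 5 of 5. The groups overlapped for each of the 3. The calls were fragile, since Nusap1 passed in 7 of 14 alternatives, Cenpf in 5 of 14 and Ect2 in 4 of 13. Mki67 stood at 101, 187, 130, 53.8 and 45.1 CPM in pre-HE against 60.2, 62.8, 52.1, 51.8 and 82.2 CPM in aEC and did not pass (log2 fold change 0.53, SE 0.26, edgeR adjusted p 0.153). Its pre-HE values span a range far wider than those of aEC, over 11 to 87 cells per library.

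**Figure D3:**
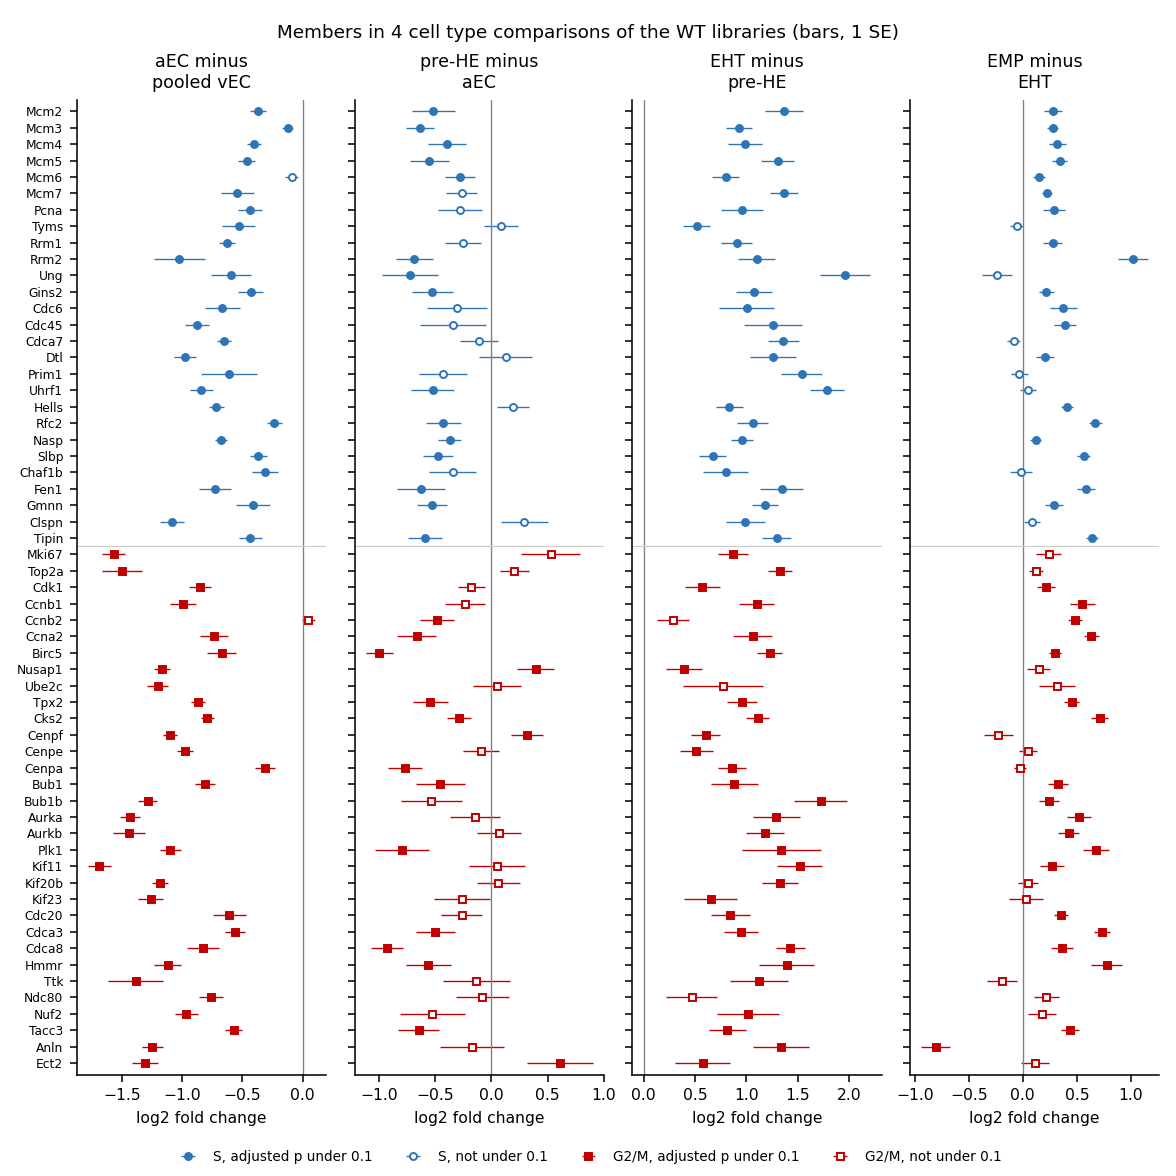
Log2 fold change of each of the 59 members (vertical axis, S genes above the line and G2/M genes below) in 4 comparisons of cell types within the 5 WT libraries; bars are 1 SE, and filled symbols passed an adjusted p under 0.1 over all genes tested. In aEC minus pooled vEC 57 members lie below 0 as calls, in EHT minus pre-HE 56 lie above 0, and in pre-HE minus aEC 27 calls lie below and 3 above.

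Of 23 G1 genes tested, 6 were higher and 6 lower in pre-HE than in aEC, shares near the 21.2% and 21.1% of all genes. Cdkn1c, encoding the CDK inhibitor p57, stood at 237, 313, 240, 537 and 227 CPM in aEC and at 1371, 1167, 1634, 1575 and 1416 CPM in pre-HE, a log2 fold change of 2.13 (SE 0.21, edgeR adjusted p 0.000803). Cdkn1a went the other way, with 25.8, 4.66, 0, 20.6 and 12.9 CPM in pre-HE against 132 to 251 CPM in aEC, a log2 fold change of -3.68 (SE 0.20, edgeR adjusted p 1.27e-25). Neither pair of groups overlapped, with Cdkn1a higher in aEC than in pre-HE and Cdkn1c higher in pre-HE than in aEC. Within aEC itself, Cdkn1c stood above Cdkn1a in every WT library. Btg2, an antiproliferative gene, rose by 2.22 (SE 0.14) and Ccnd2 by 2.03 (SE 0.15) on the log2 scale, while Ccnd1, another D-type cyclin, fell by 1.89 (SE 0.15) and E2f6, a repressing E2F, by 0.79 (SE 0.23).

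Within pre-HE, levels of these genes were also set beside the class of the cell, as a description of UMIs pooled over the 5 WT libraries. The intervals are Poisson intervals of the pooled UMI count. They reflect counting error alone and leave out the spread between cells and between libraries. The 25 cells with at least 20 G2/M UMIs had 218 UMIs of Cdkn1c, or 628 CPM (exact 95% interval 548 to 718), and the other 146 cells had 3240 UMIs, or 1633 CPM (1577 to 1690). The same order was seen within WT 1 (632 and 1525 CPM), WT 2 (808 and 1282 CPM) and WT 4 (638 and 1700 CPM). In these libraries the former class held only 6, 5 and 10 cells, and WT 3 and WT 5, with 2 such cells each, were left out. Ccnd1 had 2 UMIs in the former cells, 5.77 CPM (0.698 to 20.8), and 129 UMIs in the latter, 65.0 CPM (54.3 to 77.3). Ccnd2 stood at 69.2 and 185 CPM, in the same order within WT 1 (32.2 and 191 CPM), WT 2 (96.2 and 179 CPM) and WT 4 (80.6 and 189 CPM). Btg2 stood at 187 and 214 CPM with overlapping intervals, and its order differed among libraries, with 343 and 247 CPM in WT 1, 57.7 and 290 CPM in WT 2 and 148 and 199 CPM in WT 4. Btg1 stood at 259 and 352 CPM, in the same order within WT 1 (257 and 496 CPM), WT 2 (192 and 253 CPM) and WT 4 (329 and 333 CPM). Pooled Cdkn1a went the other way with overlapping intervals, at 28.8 CPM (13.8 to 53.0) from 10 UMIs and 16.6 CPM (11.45 to 23.4) from 33 UMIs. Its order differed among libraries, with 10.7 and 28.9 CPM in WT 1, 19.2 and 0 CPM in WT 2 and 47.0 and 17.0 CPM in WT 4. The former cells had 1 UMI of Cdkn1a each in WT 1 and WT 2. They had 3 UMIs of Ccnd2 in WT 1 and 3 of Btg2 in WT 2, so orders within single libraries lie near the floor for these genes. In aEC the Cdkn1c level was 261 CPM in the cells with at least 20 G2/M UMIs and 406 CPM in the others.

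From pre-HE to EHT nearly all members were higher. Of 59 members, 56 rose (27 of 27 S genes and 29 of 32 G2/M genes), 0 fell, and Ccnb2, Ube2c and Ndc80 did not pass. Over the 8467 genes tested, 31.5% were higher and 30.1% lower. The median log2 fold change was 1.07 over the S genes and 0.99 over the G2/M genes, against 0.04 over all genes.

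Uhrf1, which couples DNA methylation to replication, stood at 46.1, 37.4, 58.4, 38.7 and 25.8 CPM in pre-HE and at 167, 118, 131, 131 and 152 CPM in EHT. The groups did not overlap (log2 fold change 1.79, SE 0.17, edgeR adjusted p 4.65e-15). Ung had the largest rise of the S genes, with 29.5, 14, 38.9, 11.9 and 12.9 CPM in pre-HE and 97.4, 65.8, 32.6, 69.2 and 74.9 CPM in EHT, a log2 fold change of 1.96 (SE 0.24, edgeR adjusted p 4.6e-10). In WT 3 it was higher in pre-HE, a sum of 11 cells, so the ranges overlapped. Prim1, the catalytic primase subunit, rose by 1.54 (SE 0.20) and Mcm5 by 1.30 (SE 0.16) on the log2 scale, both in 5 of 5 libraries.

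In the G2/M list the largest rises were those of Bub1b, a spindle checkpoint kinase (1.73, SE 0.26), Kif11 (1.52, SE 0.22) and Cdca8 (1.43, SE 0.14), each in 5 of 5 libraries. Top2a stood at 194, 131, 272, 115 and 212 CPM in pre-HE and at 393, 422, 498, 412 and 371 CPM in EHT, without overlap (log2 fold change 1.33, SE 0.12, edgeR adjusted p 1.05e-13). Mki67 rose by 0.87 (SE 0.15) and Cdk1 by 0.57 (SE 0.17) on the log2 scale. Ube2c, with 220 ± 113 CPM in pre-HE and 370 ± 74 CPM in EHT, had a log2 fold change of 0.77 (SE 0.39, edgeR adjusted p 0.169).

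Of 25 G1 genes tested at this step, 10 rose and 6 fell, beside the 31.5% and 30.1% of all genes. The largest rises were those of E2f8, an atypical E2F (2.63, SE 0.39), Cdk6, a G1 kinase (2.41, SE 0.28), and Ccne2, cyclin E2 (1.36, SE 0.24). The largest falls were those of Btg2 (-2.98, SE 0.16), Btg1 (-2.28, SE 0.15) and Foxo1, a forkhead factor of quiescent cells (-2.02, SE 0.28), all in 5 of 5 libraries. Cdkn1c stood at 372, 434, 265, 458 and 275 CPM in EHT and was thus lower than in pre-HE in every WT library. The hematopoietic markers Ptprc, Coro1a, Laptm5 and Cd52 summed to 0.694 ± 0.29 UMIs per 10000 in pre-HE and 4.89 ± 0.70 in EHT beside these changes, and their part in them was not tested.

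**Figure D4:**
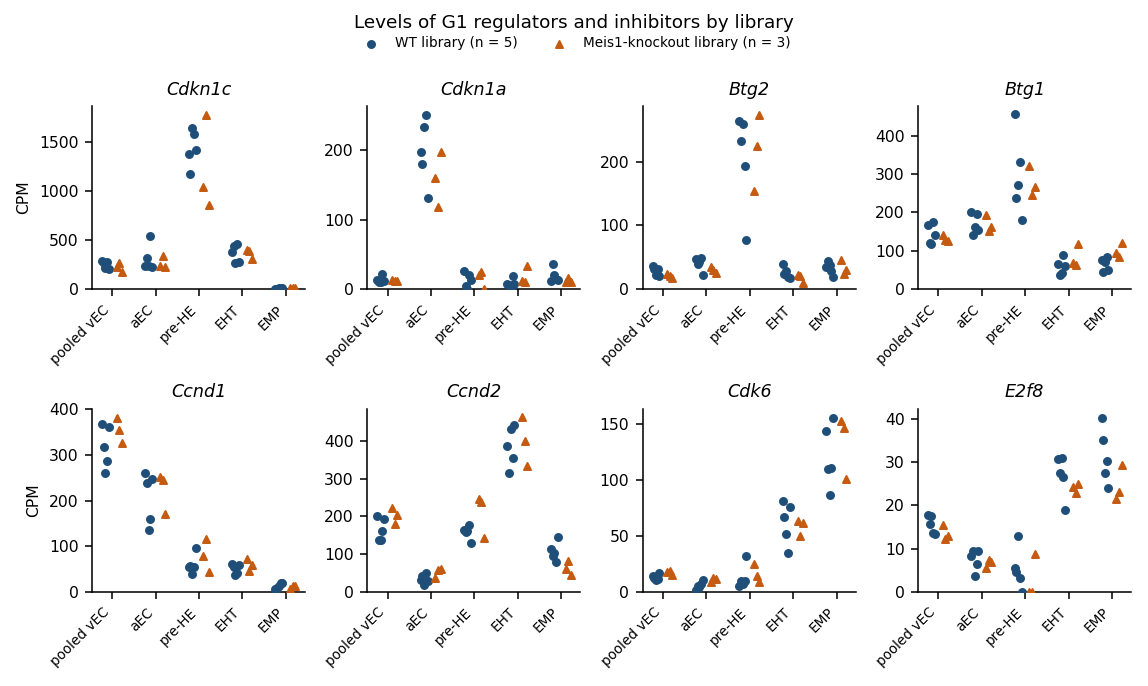
Levels of G1 regulators and inhibitors in CPM, from 0 on each vertical axis, in aEC, pre-HE, EHT, EMP and pooled vEC; each point is 1 library (5 WT, 3 Meis1-knockout). Cdkn1c of WT lies between 1167 and 1634 CPM in pre-HE and between 2.14 and 12.2 CPM in EMP, while Cdkn1a lies between 132 and 251 CPM in aEC and at or below 25.8 CPM in pre-HE.

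Most members were higher in EMP than in EHT, by smaller differences. The authors hold EMP to come likely from yolk sac hematopoiesis, apart from perhaps a few cells. Rises and falls in EMP minus EHT thus compare the clusters and do not trace a lineage. Of 59 members, 38 rose (20 S and 18 G2/M genes) and 1 fell, where 27.9% of the 9252 genes tested rose and 28.7% fell. Scaled by library totals only, which moved the median of all genes to -0.11, 29 members rose and 7 fell (3 S and 4 G2/M genes). Of all 9252 genes, 1895 rose and 3333 fell with that scaling. With no filter on low counts 42 members rose and 3 fell, where 3244 of 17091 genes rose and 3281 fell. The median log2 fold change was 0.28 in both lists, against -0.01 over all genes. All 10 helicase and licensing genes rose, with log2 fold changes of 0.15 (Mcm6) to 0.39 (Cdc45), as did all 7 genes of the mitotic kinase and its partners, with 0.22 (Cdk1) to 0.73 (Cdca3). Of the 8 kinetochore and checkpoint genes, Bub1 and Bub1b rose and the other 6 did not pass.

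Rrm2 had the largest rise of the S genes, from 118, 129, 155, 105 and 124 CPM in EHT to 279, 283, 182.6, 185 and 258 CPM in EMP, without overlap (log2 fold change 1.02, SE 0.14, edgeR adjusted p 0.000867). Rfc2, a clamp loader subunit, rose by 0.67 (SE 0.06) and Tipin, a fork protection factor, by 0.64 (SE 0.05) on the log2 scale, both in 5 of 5 libraries. Hmmr, a spindle assembly protein, stood at 72.8, 125, 128, 98.9 and 96.1 CPM in EHT and at 184, 173, 157, 166 and 134 CPM in EMP, also without overlap (log2 fold change 0.78, SE 0.14, edgeR adjusted p 0.00316). Cks2, a small partner of CDK1, rose by 0.71 (SE 0.08). Mki67, with 169 ± 31 CPM in EHT and 184 ± 46 CPM in EMP, did not pass (log2 fold change 0.24, SE 0.12, edgeR adjusted p 0.122), nor did Top2a (0.13, SE 0.07, edgeR adjusted p 0.13).

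The member that fell with TMM scaling was Anln, encoding the actin-binding protein anillin of the cleavage furrow. It stood at 44.4, 33.8, 61.0, 39.5 and 25.5 CPM in EHT and at 27.7, 22.8, 20.8, 19.7 and 14.5 CPM in EMP. It was lower in EMP in 5 of 5 libraries with overlapping ranges (log2 fold change -0.81, SE 0.13, edgeR adjusted p 4.12e-05). Of 27 G1 genes tested 9 rose and 8 fell, shares near the 27.9% and 28.7% of all genes. The rises were led by Rbl2 (1.33, SE 0.26), Cdk6 (1.11, SE 0.12) and Cdkn2d, encoding the inhibitor p19 (0.70, SE 0.10), and the falls by Cdkn1c (-5.69, SE 0.33), Ccnd1 (-1.89, SE 0.37) and Ccnd2 (-1.77, SE 0.07).

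Between the genotypes, members passed the test in EMP and in no other cell type tested. In aEC 0 of 59 members passed, where 0% of the 9540 genes tested passed. At an unadjusted p under 0.05 there were 10 members and 961 genes by edgeR, and DESeq2 called 11 genes, 0 of them members. The fitted change was above 0 for 53 of 59 members (25 S and 28 G2/M genes), where 49.6% of all genes lay below 0, with medians of 0.17 and 0.24 on the log2 scale. Without WT 5, 6 members passed, all higher in the knockout, where 443 of 9518 genes passed, 229 of them higher and 214 lower. With median UMIs per cell as a covariate 0 passed, and 23 of 27 S and 14 of 32 G2/M genes lay below 0. In pre-HE 37 members passed the filter on low counts, and 0 of them passed the test, where 0.19% of 3682 genes passed. At an unadjusted p under 0.05 there were 4 members and 250 genes. In EHT 0 of 59 passed (2 members and 785 genes unadjusted), where 0.288% of 8670 genes passed. In pooled vEC 0 of 59 passed (5 members and 1950 genes unadjusted), where 0.041% of 12205 genes passed. In Megakaryocytes 0 of 59 passed (3 members and 641 genes unadjusted), where 0.206% of 7770 genes passed. That test used 7 libraries, since WT 3 had 5 such cells and was dropped. The groups did not overlap for 0 of 59 members in aEC (6.18% of all genes tested), 1 of 37 in pre-HE (4.59%), 1 of 59 in EHT (7.09%), 2 of 59 in pooled vEC (6.99%) and 5 of 59 in Megakaryocytes (9.23%).

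Summed levels of pre-HE also overlapped between genotypes. In the 3 Meis1-knockout libraries the S genes of pre-HE summed to 18.9, 18.4 and 16 UMIs per 10000 and the G2/M genes to 22.1, 15.8 and 25.6, inside the WT ranges for S genes and overlapping them for G2/M genes. Cdk1 stood at 94.0, 124 and 141 CPM in Meis1-knockout pre-HE against 98.0 to 221 CPM in WT, a log2 fold change of -0.62 (SE 0.26, edgeR adjusted p 0.612). Mki67 stood at 84.2, 57.4 and 8.84 CPM against 45.1 to 187 CPM, a log2 fold change of -0.71 (SE 0.61, edgeR adjusted p 0.885). The lowest value, of Meis1-knockout 3, rested on 15 cells with a median of 6477 UMIs and lies near the floor. The groups overlapped for both genes.

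Whether a step differed between genotypes was tested as an interaction over all 8 libraries. For pre-HE minus aEC 0 of 59 members passed, where 0.0527% of 9489 genes passed. At an unadjusted p under 0.05 there were 12 members and 491 genes. The smallest edgeR adjusted p of a member was 0.109, for Aurkb, a kinase of the chromosomal passenger complex (log2 difference of the step -2.10, SE 0.54). For EHT minus pre-HE 0 of 59 members passed (4 members and 353 genes unadjusted), where 0.0125% of 8025 genes passed. For pre-HE minus aEC the fitted difference was below 0 for 49 of 59 members, with a median of -0.41, where 52.7% of all genes lay below 0. In that comparison 1 member passed without WT 2, without WT 4, without Meis1-knockout 2 or with sums of at least 20 cells, and 2 without WT 5. All had a difference below 0, and shares over all genes in these runs are not given.

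In EMP 5 G2/M genes were lower in the knockout and 0 members were higher, where 4.69% of 9172 genes passed. In WT 1 to 5 Bub1b stood at 84.9, 65.7, 59.6, 75.04 and 51.5 CPM, and in the knockout libraries at 49.7, 36.9 and 44.4 CPM, a log2 fold change of -0.57 (SE 0.16, edgeR adjusted p 0.0625). Cdk1 stood at 310, 272, 283, 352 and 241 CPM in WT and at 203, 218 and 212 CPM in the knockout, a log2 fold change of -0.41 (SE 0.11, edgeR adjusted p 0.0632). The others were Cenpe, a kinetochore motor (-0.47, SE 0.12), Bub1, a checkpoint kinase (-0.42, SE 0.13), and Kif20b, a motor of cytokinesis (-0.40, SE 0.12). The groups did not overlap for any of the 5, as for 10 of 59 members and 12.4% of all genes tested. Over the lists, 29 of 32 G2/M and 20 of 27 S genes had a fitted change below 0, where 50.4% of all genes did, with medians of -0.23 and -0.13.

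The calls in EMP varied with the libraries used. Leaving out 1 library at a time gave 0 to 14 called members, with 14 without WT 5 and 0 without WT 1, WT 2, WT 4 or Meis1-knockout 2. Shares over all genes in these runs are not given. With median UMIs per cell as a covariate 0 members passed. Depth and genotype were largely confounded, so that fit cannot tell their parts apart. The share of EMP with at least 20 G2/M UMIs at 5000 UMIs was 61.3 to 81.4% in WT and 52.0%, 47.6% and 38.2% in the knockout, without overlap, and the G2/M genes summed to 47.7, 44.0 and 40.0 UMIs per 10000 in the knockout against 47.8 to 57.9 in WT. Marker genes were also compared: 6 erythroid genes summed to 0.058 to 1.92 UMIs per 10000 in WT EMP and to 2.86 to 18.6 in the knockout, without overlap. The 6 granulocyte genes, whose WT mean was highest in EMP itself (15.9, against 8.99 in Myeloid cells), summed to 14.1 to 19.1 and 18.9 to 32.7, with overlap. All 6 of each were found. The part of these markers in the result was not tested.

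In Myeloid cells the fitted changes of most G2/M genes lay below 0 without a call. Of 59 members 0 passed, where 2.86% of 11479 genes passed, and 29 of 32 G2/M genes had a fitted change below 0. At an unadjusted p under 0.05 there were 13 members and 1720 genes. The G2/M genes summed to 54.0, 51.1, 59.3, 56.4 and 50.2 UMIs per 10000 in WT and to 45.8, 46.9 and 47.3 in the knockout, without overlap, while the S genes summed to 34.5 ± 1.9 and 34.6 ± 1.6. The groups did not overlap for 15 of 59 members, all G2/M genes, and for 11.2% of all genes tested, and Bub1b had the smallest adjusted p of the 15 (log2 fold change -0.32, SE 0.09, edgeR adjusted p 0.117). Without WT 5, 11 members passed, with no share over all genes given here. Classes of cells went the other way in part: low cells made up 0.995 to 8.57% of a WT library and 0 to 0.470% of a knockout library, without overlap, and G2/M-high cells 92.7 ± 3.5% and 98.3 ± 1.1%, with overlap. The 6 granulocyte genes, all found, summed to 7.35 to 9.99 UMIs per 10000 in WT and to 16.2 to 22.4 in the knockout, and their part was not tested. Of the G1 list only Ccnd2 passed in any genotype comparison, with 275 ± 73 CPM in WT Myeloid cells and 110 ± 15 CPM in the knockout, a log2 fold change of -1.26 (SE 0.23, edgeR adjusted p 0.0282).

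**Figure D5:**
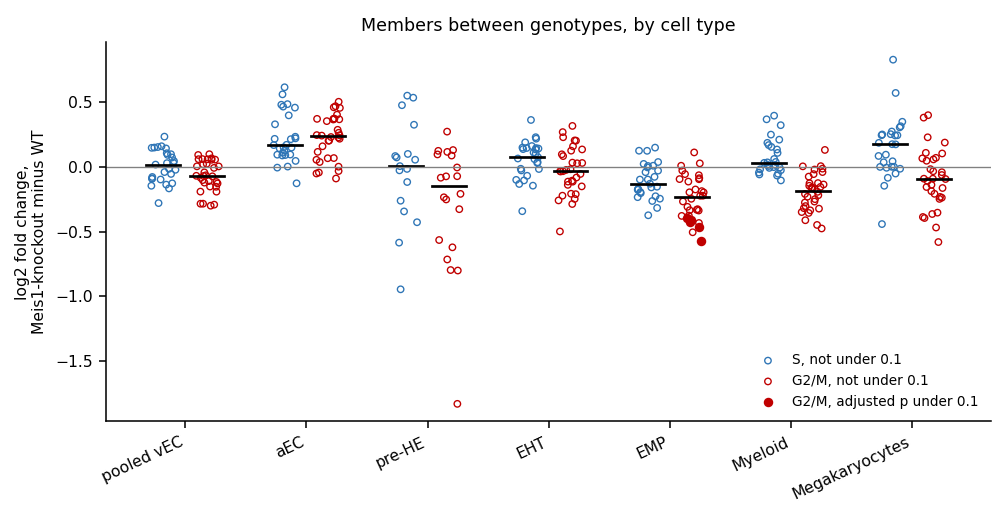
Log2 fold change of each member tested, Meis1-knockout minus WT, by cell type; each point is 1 gene and filled points passed an adjusted p under 0.1 over all genes tested. The filled points are the 5 G2/M genes of EMP, between -0.57 and -0.40, and the members of pre-HE spread the widest, from -1.83 to 0.55.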

How the data were processed

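Single-cell RNA and 6 antibody tags had been counted in 8 libraries of CD31+ AGM cells. The authors deposited UMI counts without any scaling for 15168 cells and 28014 genes, after filters on genes per cell (at least 2000) and mitochondrial share (at most 10%). Cell Ranger 3.0.2 and mm10 are named in the submitters' processing notes. Their annotation gave library, genotype and cluster of each cell. The tags were not used here.

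For each cell type of a library with at least 10 cells, UMIs were added up per gene, and these sums went into edgeR 4.0.16 under R 4.3.3 (TMM, filterByExpr, quasi-likelihood F test, two-sided, Benjamini-Hochberg adjusted p under 0.1 over all genes tested). Comparisons of cell types used the 5 WT libraries with library as a block, interactions all 8 with the same block, and genotypes were compared as 5 against 3 libraries with no block. CPM were UMIs of a gene per 1000000 UMIs of the sum. Summed levels were given per 10000 UMIs. Cells were thinned to 5000 UMIs for classes. Shares carry exact Clopper-Pearson intervals at 95%. Levels of G1 genes within classes of cells carry exact Poisson intervals at 95%, taken on pooled UMIs. Doublets called by Scrublet in scanpy 1.11.5 (30 components, per library) were kept, and left out in an alternative. The tests were checked on simulated counts.

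The members, the list of 33 G1 regulators and inhibitors and the marker lists were chosen with earlier results of these data known. Any member could be named. Values per library were given for a fixed set of anchors and for up to 3 called rises and 3 called falls of each list, and of the G1 list up to 3 called rises and 3 called falls per comparison were named. Cdkn1c at the step to EHT, the levels of G1 genes within classes of pre-HE and aEC cells, and members named for missing the threshold in pre-HE were chosen after their values were seen.

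Alternatives were RLE normalization, library totals only, DESeq2 1.42.0, stricter thresholds, no filter on low counts, sums of at least 5 or 20 cells, no doublets, thinned cells, omission of each library, the block removed or the replicate number added as a block, and, for genotypes, median UMIs as a covariate or WT 5 as the only WT library. Depth class as a covariate and the class of at least 20 G2/M UMIs were added once the data were known. Other steps used Python 3.11.15, scipy 1.17.1 and numpy 2.4.6, with tables read by pandas 2.3.3 and plots by matplotlib 3.10.9.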

Additional observations from a re-analysis of the deposited data

Results flagged for a closer look

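In 3 of 50 groups of 5 WT libraries 1 library stood far from the others by Dixon's criterion, which chance alone gives in about 1 of 20 groups. The summed level of the S genes in EHT was 39.5 UMIs per 10000 in WT 1, against 37.0 to 37.3 in WT 2 to 5. Low cells made up 3.23% of EHT in WT 3, which was 1 of 31 cells, against 0% in the other WT libraries. S-high cells made up 16.4% of aEC in WT 5, against 28.0 to 31.4% in WT 1 to 4. WT 5 was also the shallowest WT library, with a median of 12721 UMIs per cell. The part of depth before thinning in that value was not tested.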

How the results depend on the processing

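Counts of called members were within 1.5 times their values in the report under 216 of the alternatives tried, larger under 21 and smaller under 18, and shares of cells moved by over 1 SD under 19 and by less under 101. With Bonferroni adjustment 3 members passed in pre-HE minus aEC, 10 in EMP minus EHT, 33 in aEC minus pooled vEC and 0 between genotypes of EMP. After thinning to 5000 UMIs, which left fewer genes to test, 17, 24 and 1 passed in pre-HE minus aEC, EMP minus EHT and between genotypes of EMP. For genotypes in EMP, library totals gave 8, an adjusted p under 0.05 gave 0, no filter on low counts 11, and median UMIs as a covariate, depth class as a covariate and WT 5 as the only WT library 0 each. Elsewhere no filter gave 4 in aEC, library totals 2 and DESeq2 1 in Myeloid cells, and sums of at least 20 cells 1 in the interaction of pre-HE minus aEC. The cause was not tested. Omitting 1 library at a time gave 23 to 33 in pre-HE minus aEC, 52 to 59 in EHT minus pre-HE, 34 to 41 in EMP minus EHT and 54 to 57 in aEC minus pooled vEC. For genotypes it gave 0 to 6 in aEC, 0 to 1 in EHT, 0 to 14 in EMP, 0 to 11 in Myeloid cells and 0 to 5 in pooled vEC, each highest without WT 5, and 0 to 2 in the interaction of pre-HE minus aEC. Megakaryocytes without WT 3 had no value of their own, since WT 3 was already left out.

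WT and Meis1-knockout replicate numbers were not stated to mark anything shared, and deviations of same-numbered libraries correlated between -0.18 and 0.26. A replicate block, using libraries with a shared number, gave 11 members in aEC, 2 in pre-HE, 2 in EHT, 15 in EMP, 12 in Myeloid cells, 0 in Megakaryocytes and 11 in pooled vEC. Over all genes it gave 784 of 9141 in aEC and 145 of 3451 in pre-HE. Without the library block 23 passed in pre-HE minus aEC, where 3106 of 8143 genes did. Counts of members under alternatives that stand without a count over all genes do not set members apart from other genes.

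Shares of classes followed the limits set. Sums of WT pre-HE rested on 11 to 87 cells per library.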
